A study of Homo sapiens with 18 samples.

Results

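MIR155HG, MIR17HG, MIR22HG and MIR4432HG are long noncoding RNA genes whose transcripts hold the hairpins of microRNAs. They are 4 of the 56609 gene symbols in the count table and were taken by symbol. The cells were HG3, MEC2 and PCL12, EBV-positive cell lines of chronic lymphocytic leukemia (CLL), a cancer of mature B cells. MEC2 carries mutated IGHV genes and HG3 and PCL12 unmutated ones. Each line had 3 samples stimulated for 4 h with 2.5 μg·mL−1 of ODN-2006, an oligonucleotide with unmethylated CpG motifs that activates the DNA receptor TLR9, and 3 unstimulated samples. The labels name no genetic change between the 6 groups, and all were grown in medium with serum. The sources do not say whether the 3 samples of a group were separate cultures, so P values measure the spread between these samples, which may be technical.

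A host transcript is made by RNA polymerase II. In the nucleus the Drosha and DGCR8 complex cuts the hairpin out of it, Dicer then trims the hairpin to the mature microRNA, and Argonaute proteins carry that strand to messenger RNAs that pair with its seed, bases 2 to 8. MIR155HG, also known as BIC, is the host of miR-155, which is induced in activated B cells and abundant in several B-cell malignancies, where it lowers inhibitors such as SHIP1 and SOCS1. MIR17HG makes the miR-17-92 cluster, an oncogenic cluster driven by MYC that restrains the proapoptotic protein BIM. MIR22HG makes miR-22, a microRNA linked to TET2, and MIR4432HG carries the hairpin of the little studied miR-4432.

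The mature microRNAs of the 4 hosts are shown because their seeds define what each host can deliver to the cell. The sequences are those of RefSeq (GRCh38.p14), 5′ to 3′, with the seed in capitals.
miR-155-5p: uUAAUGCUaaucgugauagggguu
miR-17-5p: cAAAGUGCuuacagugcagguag
miR-20a-5p: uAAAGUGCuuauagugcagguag
miR-18a-5p: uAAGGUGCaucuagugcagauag
miR-19a-3p: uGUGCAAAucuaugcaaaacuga
miR-19b-3p: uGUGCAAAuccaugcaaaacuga
miR-92a-3p: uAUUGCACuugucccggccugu
miR-22-3p: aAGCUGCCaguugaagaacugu
miR-4432: aAAGACUCugcaagaugccu
MIR17HG thus carries a shared AAAGUGC seed in miR-17-5p and miR-20a-5p and a shared GUGCAAA seed in miR-19a-3p and miR-19b-3p, while the seeds of miR-155-5p, miR-22-3p and miR-4432 are different from these and from each other.

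In GENCODE release 44 on GRCh38, MIR155HG lies on the plus strand of chromosome 21 (25561810 to 25575168), has 2 annotated transcripts with 1776 exonic bases, and holds the MIR155 hairpin in an exon of both. MIR17HG lies on the plus strand of chromosome 13 (91347686 to 91397592). Its 6 hairpins are exonic in 3 of its 16 transcripts and lie within 11 of them, so most transcripts that span the cluster carry it in an intron. MIR22HG is a minus-strand gene of chromosome 17 (1711447 to 1717174), and its hairpin is exonic in 30 of 32 transcripts. MIR4432HG, a minus-strand gene of chromosome 2, spans 60336446 to 60439828, and its hairpin is exonic in 0 of 8 transcripts and within 2 of them.

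**Figure D1:**
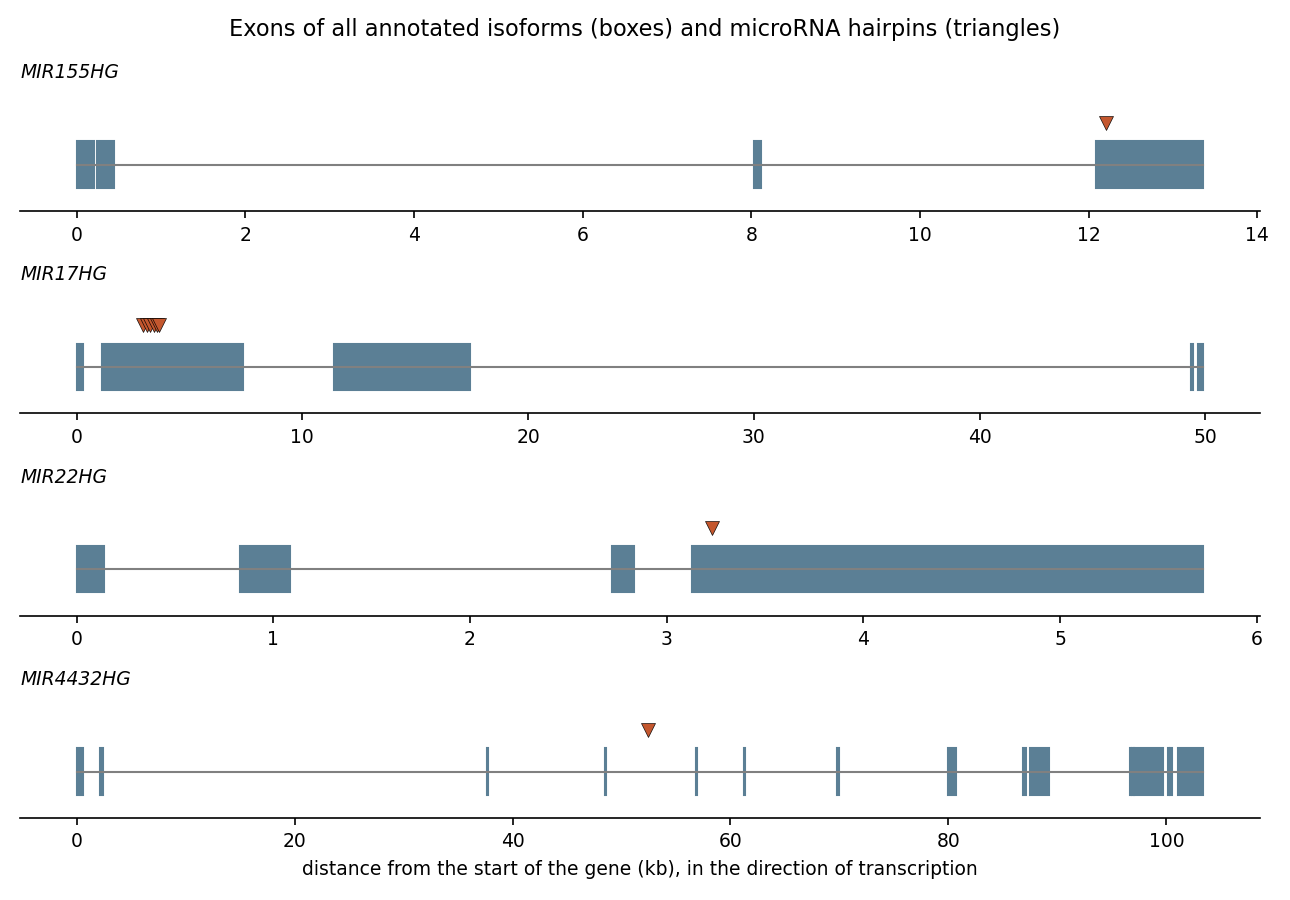
Gene models of the 4 hosts, 1 panel each, with the distance from the gene start in kb on the horizontal axis, boxes for the exons of all annotated isoforms together and triangles for the hairpins. The MIR155 hairpin sits 12.2 kb from the start in the last exon, the 6 hairpins of MIR17HG between 2.92 and 3.71 kb, and the MIR4432 hairpin 52.4 kb from the start between exons.

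The RefSeq promoter window of MIR155HG (250 bases before to 50 after the start, chr21:25561895-25562194, GRCh38.p14, plus strand) is shown because AP-1 and NF-κB, both activated downstream of TLR9, are known regulators of this gene. Capitals mark the matches found.
MIR155HG promoter: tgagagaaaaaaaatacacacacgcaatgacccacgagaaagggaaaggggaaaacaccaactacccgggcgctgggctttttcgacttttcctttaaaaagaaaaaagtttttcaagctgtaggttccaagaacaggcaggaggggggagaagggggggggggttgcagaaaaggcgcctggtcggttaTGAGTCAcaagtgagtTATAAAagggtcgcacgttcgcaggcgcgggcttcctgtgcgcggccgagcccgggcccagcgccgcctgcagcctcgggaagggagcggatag
The AP-1 letters TGAGTCA occurred at 60 bases before the start and the letters TATAAA at 44 bases before it. Both strands were searched, also for CACGTG, the E-box bound by MYC, and for the NF-κB consensus, and neither was in this window. The windows of the other 3 hosts had no match to any of the 4 motifs. Those of MIR22HG (chr17:1716161-1716460) and MIR4432HG (chr2:60391326-60391625 and chr2:60382987-60383286) also lie within the GENCODE genes, downstream of their GENCODE starts. Over 35116 human promoter windows of this length, 4.95% held the AP-1 letters, 11.5% TATAAA, 7.26% the E-box and 5.91% the NF-κB consensus, so the AP-1 match of MIR155HG is of a kind that a minority of promoters has.

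The libraries held 20382943 to 67308932 counts. The lines expressed B-cell markers, since MS4A1, CD79A, CD79B and PAX5 had 64.5 CPM (the count scaled to the library's TMM-adjusted total) or more in every library, while no T-cell or monocyte marker of CD3D, CD3E, CD3G, CD2, CD14, LYZ, CSF1R and FCGR1A exceeded 2.37 CPM. Mitochondrial genes took 20.2% of the counts in HG3 unstimulated replicate 2 and 19.7% in MEC2 CpG replicate 2, against 2.82% to 9.28% in the other 16 libraries. In the PCL12 libraries of replicates 2 and 3, the median level of 45 genes that mark MEC2 was 29.0% to 31.3% of that in MEC2, against 2.26% and 2.36% in PCL12 replicate 1, the replicate used to select these genes. PCL12 replicates 2 and 3 are called libraries that hold MEC2 transcripts on this ground, and the PCL12 responses of the hosts and of the transcription factors are given with and without them. Without them PCL12 has 1 library per condition, so the standard error and p come from the spread in the other lines, which PCL12 is assumed to share, and such values are read as those of 1 pair.

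In each line the host transcripts were compared between CpG-stimulated and unstimulated cells, to see which of them respond to TLR9. A differentially expressed gene (DEG) was one that reached |Log2FC| ≥ 1 at a nominal P below 0.01. In edgeR's quasi-likelihood test without pairing, no member was a DEG in HG3, MEC2 or PCL12, where 0.496%, 0.251% and 0.116% of the 31872 tested genes were. All 4 members passed the filter of 10 counts over the 18 libraries, MIR4432HG only through its CpG libraries. DESeq2 called no member either. In edgeR without pairing, 0 members and 3.73% of tested genes held an unadjusted P value under 0.05 in HG3. It was 1 member and 2.46% in MEC2, and 1 member and 2.09% in PCL12. That 1 member was MIR4432HG, which could pass the filter only by being high after CpG, so nothing is drawn from its P value. In MEC2 other tools gave such a P value to MIR155HG and MIR17HG. It was 0.0365 and 0.0260 in DESeq2 and 0.0227 and 0.0398 in limma-voom. limma-voom with the replicate pairs as a block gave 0.0331 and 0.0220. Their adjusted p in limma-voom was 0.998 or more, and the share of all genes at this threshold was not computed for these tools. With the replicate pairs as a block, edgeR called MIR155HG and MIR17HG in MEC2 and MIR17HG in PCL12, and limma-voom with the block called none of these. In the edgeR fits with the block, and in the edgeR fit with no filter, the prior degrees of freedom were estimated as infinite for 100% of genes, so each gene was given the spread typical of its abundance and its own spread between pairs did not enter its standard error or p. In MEC2 the block SE ran only from 0.204 to 0.295 (5th to 95th percentile) over 9306 genes of at least 10 CPM. The calls of these fits are given below as results of such a fit, and no response of a host is drawn from them.

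In HG3, MIR155HG stood at 190, 305 and 430 CPM in CpG replicates 1, 2 and 3 and at 208, 490 and 317 CPM in unstimulated replicates 1, 2 and 3. In MEC2 it stood at 378, 672 and 597 CPM with CpG and at 199, 131 and 514 CPM without. In PCL12 the values were 406, 615 and 286 CPM with CpG and 148, 331 and 294 CPM without. The stimulated and unstimulated ranges overlapped in all 3 lines. The highest unstimulated level of MEC2, that of replicate 3, lay above the lowest stimulated one.

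The mean of MIR155HG was 549 ± 153 CPM (SD, n = 3) in stimulated MEC2 against 281 ± 204 CPM in unstimulated MEC2, a ratio of 1.95. In PCL12 it was 435 ± 166 against 258 ± 96.3 CPM, a ratio of 1.69, and in HG3 308 ± 120 against 338 ± 142 CPM. The Log2FC of the edgeR quasi-likelihood fit was 0.96 in MEC2 (SE 0.47), 0.76 in PCL12 (SE 0.47) and -0.13 in HG3 (SE 0.47), each with a Benjamini-Hochberg adjusted p = 1.0. The PCL12 value was 0.43 without CpG replicate 2 and 0.49 without unstimulated replicate 1. The exact permutation test on CPM, with both sides counted, gave 0.2 in MEC2, 0.3 in PCL12 and 0.7 in HG3, where 0.1 is the smallest p that 3 against 3 samples allow. In the unpaired edgeR fit and the exact test the response of MIR155HG was thus within the spread of the libraries in every line.

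Within the replicate pairs, MIR155HG was higher after CpG in 3 of 3 pairs of MEC2, with log2 ratios of 0.93, 2.36 and 0.21. It was higher in 2 of 3 pairs of PCL12 (1.45, 0.90 and -0.04) and in 1 of 3 pairs of HG3 (-0.13, -0.68 and 0.44). With the replicate pairs as a block, edgeR gave MIR155HG a Log2FC of 1.16 in MEC2 (SE 0.22, adjusted p = 0.000237), which met the DEG definition, as 0.555% of all genes did, while 0.333% passed the adjusted threshold of 0.05. The 3 MEC2 pair ratios of MIR155HG had themselves an SE of 0.63. In PCL12 the edgeR block value was 0.77 (SE 0.21, adjusted p = 0.228), short of the required fold, and in HG3 it was -0.12 (SE 0.21, adjusted p = 1.0). The DEG share with the block was 0.242% in PCL12 and 0.731% in HG3, and 0.0471% and 0.135% passed the adjusted threshold. limma-voom with the block gave MIR155HG 1.08 in MEC2 (SE 0.42, adjusted p = 0.998), and over all alternatives its adjusted p in MEC2 ran from 0.000237 to 1.0.

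Leaving out single libraries changed the MIR155HG call. Without pair 2 of MEC2, which holds the CpG library rich in mitochondrial counts, edgeR with the block gave 0.57 (SE 0.20, adjusted p = 0.784) and MIR155HG was no longer a DEG. Without MEC2 unstimulated replicate 3, the edgeR fit without pairing gave 1.74 (SE 0.43, adjusted p = 1.0), which met the DEG definition by its nominal P value. In PCL12, pair 1 alone gave 1.45, larger than with the libraries that hold MEC2 transcripts. For this pair the edgeR fit with the block (SE 0.43, adjusted p = 0.253) met the DEG definition and that without it (SE 0.79, adjusted p = 1.0) did not. The part that mitochondrial counts have in the MEC2 values was not tested.

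**Figure D2:**
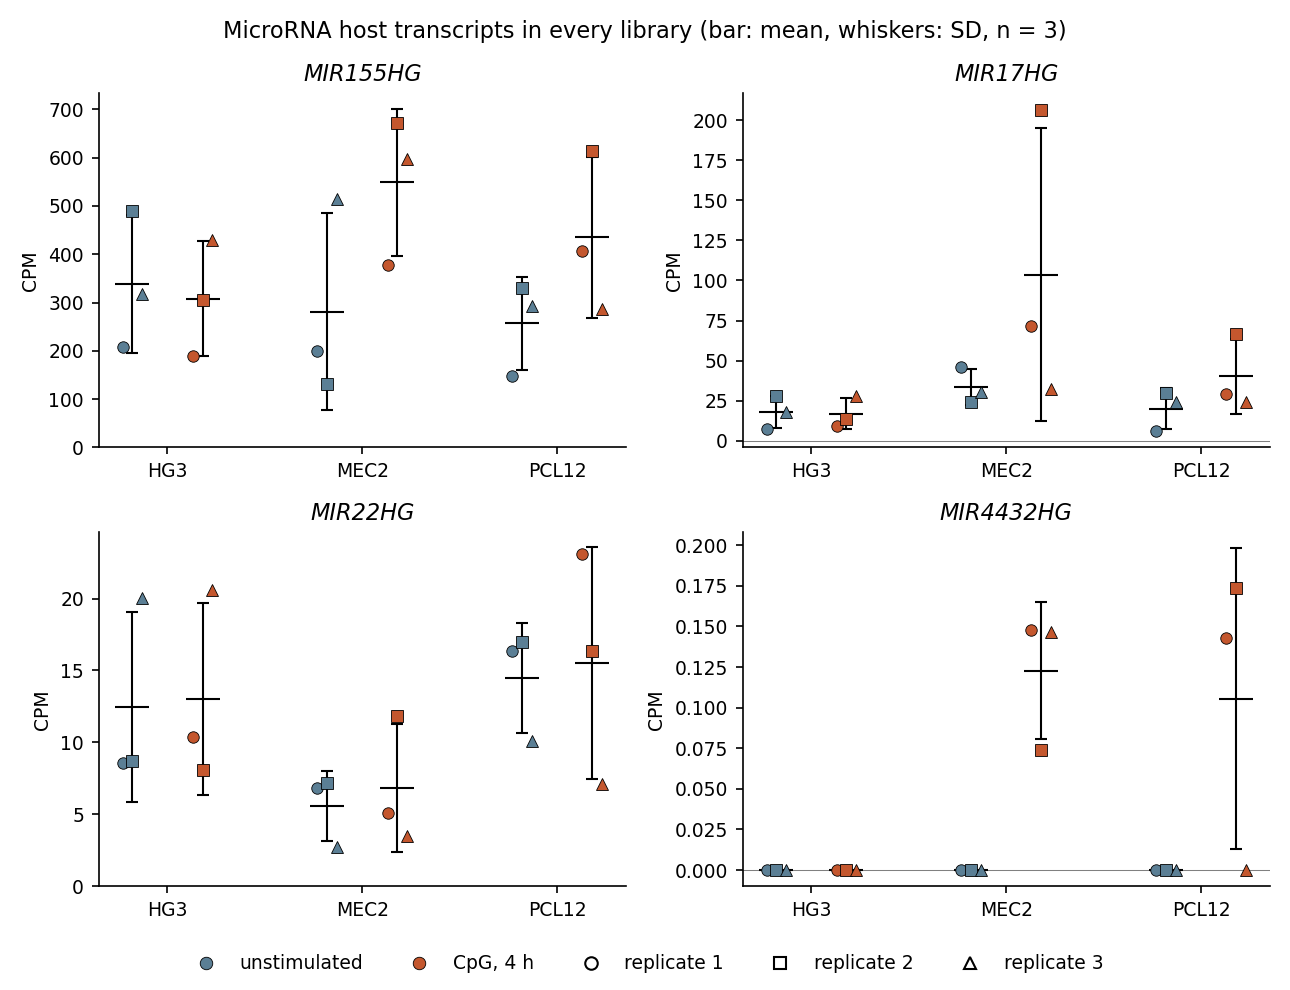
CPM of each host in all 18 libraries, 1 panel per gene, with the cell line on the horizontal axis, blue for unstimulated and orange for CpG-stimulated cells, symbols for replicates, and bars with whiskers for the mean and SD of 3 libraries. Stimulated and unstimulated points overlap for MIR155HG, MIR17HG and MIR22HG in every line, and MIR4432HG is at 0 in 13 libraries.

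MIR17HG, the miR-17-92 host, was at 71.5, 206.7 and 32.4 CPM in stimulated MEC2 and at 46.0, 24.2 and 30.3 CPM in unstimulated MEC2. In PCL12 it was at 29.2, 66.8 and 24.1 CPM against 5.80, 30.0 and 24.3 CPM. In HG3 it was at 9.26, 13.5 and 27.6 CPM against 7.56, 28.1 and 17.9 CPM. MEC2 CpG replicate 2 was far above every other library, and the groups overlapped in all lines.

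The mean of MIR17HG was 104 ± 91.5 CPM (SD, n = 3) in stimulated against 33.5 ± 11.3 CPM in unstimulated MEC2, a ratio of 3.09. The Log2FC was 1.63 in MEC2 (SE 0.76), 1.00 in PCL12 (SE 0.75) and -0.09 in HG3 (SE 0.75), each with an adjusted p = 1.0 in edgeR. The PCL12 value was 0.41 without CpG replicate 2 and 0.56 without unstimulated replicate 1. The exact permutation p was 0.2, 0.5 and 0.9. The SD of MIR17HG in stimulated MEC2 was close to its mean, and the unpaired difference stayed within it.

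The pair ratios of MIR17HG on the log2 scale were 0.64, 3.09 and 0.10 in MEC2, 2.33, 1.15 and -0.01 in PCL12, and 0.29, -1.06 and 0.62 in HG3, so 7 of 9 pairs were higher after CpG. edgeR with the block gave 1.22 in MEC2 (SE 0.24, adjusted p = 0.000402) and 1.14 in PCL12 (SE 0.23, adjusted p = 0.00244), and both met the DEG definition, while the pair ratios themselves had an SE of 0.92 and 0.68. limma-voom with the block gave 1.44 in MEC2 (SE 0.53, adjusted p = 0.998) and 1.03 in PCL12 (SE 0.62, adjusted p = 1.00). Its lowest and highest adjusted p over the alternatives were 0.000285 and 1.0 in MEC2, and 0.000180 and 1.0 in PCL12.

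Without pair 2 of MEC2, edgeR with the block gave MIR17HG 0.37 in MEC2 (SE 0.24, adjusted p = 1.0), and without CpG replicate 2 the unpaired Log2FC was 0.64 (SE 0.70). The MIR17HG call in MEC2 thus rested on that pair. In PCL12, pair 1 alone gave 2.33. For this pair the edgeR fit with the block (SE 0.43, adjusted p = 0.000180) met the DEG definition and that without it (SE 1.20, adjusted p = 1.0) did not.

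**Figure D3:**
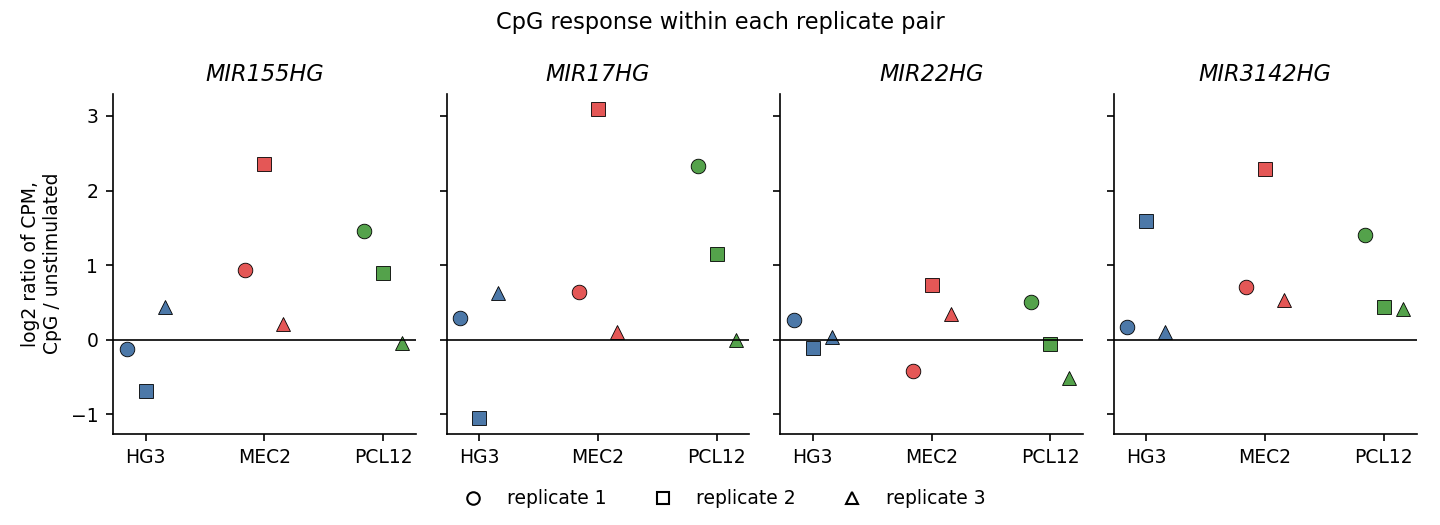
Log2 ratio of CPM, CpG-stimulated over unstimulated, within each replicate pair, with the cell line on the horizontal axis and symbols for replicates, in 1 panel each for MIR155HG, MIR17HG, MIR22HG and MIR3142HG. The highest ratios of MIR155HG and MIR17HG are those of MEC2 pair 2 (2.36 and 3.09), and MIR3142HG is above 0 in 9 of 9 pairs.

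MIR22HG, the miR-22 host, was not called in any line. It was at 5.11, 11.9 and 3.47 CPM in stimulated against 6.82, 7.15 and 2.74 CPM in unstimulated MEC2. In PCL12 it was at 23.1, 16.3 and 7.08 against 16.4, 17.0 and 10.1 CPM, and in HG3 at 10.4, 8.10 and 20.6 against 8.59, 8.72 and 20.1 CPM. The Log2FC of MIR22HG was 0.30 in MEC2, 0.10 in PCL12 and 0.06 in HG3 (SE 0.50, adjusted p = 1.0 in each, edgeR), the exact permutation p was 0.8, 1.0 and 0.8, and 5 of 9 pairs were higher after CpG. In PCL12 pair 1 alone it was 0.50 (SE 0.84, adjusted p = 1.0 in edgeR). It met the DEG definition in no line under any alternative, and its sign in each line changed when single libraries were left out. MIR22HG is overlapped on the opposite strand by WDR81, a gene with a mean of 52.4 CPM. The strand setting of the counting is not given in the sources used here, so reads of the overlap may have been counted for either gene.

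MIR4432HG was near the limit of detection. Its counts were 5, 3 and 3 in stimulated MEC2 (0.148, 0.0739 and 0.147 CPM) and 10, 4 and 0 in stimulated PCL12 (0.143, 0.173 and 0 CPM). All 9 unstimulated libraries and all 6 HG3 libraries had 0 counts, which in HG3 allows a level of up to 0.0659 to 0.155 CPM per library. Since these counts lie near the floor of 3 counts per library, no fold is given. The groups did not overlap in MEC2, as for 2.52% of tested genes with higher CpG values, and nothing is drawn from it, since a gene at 0 in every unstimulated library could pass the filter only in this way. edgeR and DESeq2 gave an adjusted p = 1.0 in both lines, and of the tools run only limma-voom called it, in MEC2, where its fitted Log2FC depends on the offset added to 0 counts. In PCL12 the mean was 0.106 ± 0.0926 CPM (SD, n = 3), and in replicate 1 alone MIR4432HG had 10 counts with CpG and 0 without.

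**Figure D4:**
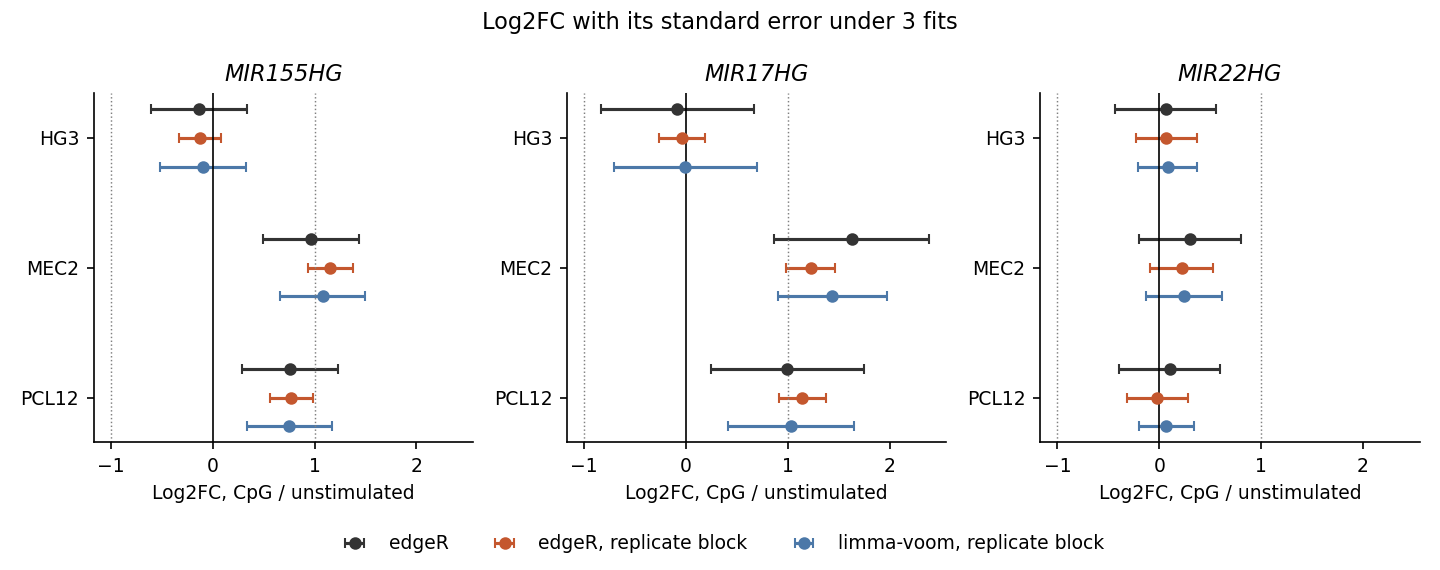
Log2FC of CpG-stimulated against unstimulated cells with its standard error, in 1 panel each for MIR155HG, MIR17HG and MIR22HG, by cell line on the vertical axis, under edgeR without pairing (black), edgeR with the replicate block (orange) and limma-voom with the block (blue). Dotted lines mark a |Log2FC| of 1. Values of MIR155HG in MEC2 lie between 0.96 and 1.16 under the 3 fits while the standard error falls from 0.47 to 0.22 with the edgeR block, in which the gene's own spread does not enter.

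Averaged over the 3 lines, the Log2FC was 0.53 for MIR155HG (SE 0.27), 0.85 for MIR17HG (SE 0.43) and 0.16 for MIR22HG (SE 0.29), each with an adjusted p = 1.00 in edgeR. In this contrast 0.527% of genes were DEGs and no member was. With the edgeR block, MIR155HG had 0.60 (adjusted p = 0.000726) and MIR17HG 0.78 (adjusted p = 1.02e-05), where 0.555% of genes passed the adjusted threshold of 0.05. limma-voom with the block gave 0.58 and 0.82 (adjusted p = 0.991 for both). Without MEC2 CpG replicate 2 the mean of MIR17HG was 0.52 in edgeR without pairing, and without MEC2 pair 2 it was 0.49 with the block (adjusted p = 0.0267). The exact permutation of signs over the 9 pairs, chosen after seeing the data, gave a mean log2 ratio of 0.60 with p = 0.0781 for MIR155HG and 0.80 with p = 0.102 for MIR17HG. The smallest p it can give is 0.00391.

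The response was then compared between lines. In edgeR without pairing no member differed at the filter of 10 counts, with 1.10 for MIR155HG (SE 0.67) and 1.71 for MIR17HG (SE 1.06) in MEC2 minus HG3, where 0.543% of genes were DEGs. In PCL12 minus HG3 the values were 0.89 and 1.08, with 0.489% of all genes DEGs, and in MEC2 minus PCL12 0.21 and 0.63, with 0.286%. Each of these differences had an adjusted p = 1.00 in edgeR. With no filter on low counts, edgeR gave DEGs for MIR155HG (1.11, SE 0.39, adjusted p = 0.692) and MIR17HG (1.74, SE 0.42, adjusted p = 0.0522) in MEC2 minus HG3 and for MIR17HG (1.09, SE 0.42, adjusted p = 1.00) in PCL12 minus HG3. Without MEC2 unstimulated replicate 3, MIR155HG was also a DEG in MEC2 minus HG3 (1.87, SE 0.56, adjusted p = 1.00 in edgeR). With the edgeR block, whose limit is given above, the fitted MEC2 minus HG3 difference of MIR155HG was 1.28 (SE 0.30, adjusted p = 0.0221), where 0.875% of genes met the definition and 0.141% passed the adjusted threshold. MIR17HG met the definition in MEC2 minus HG3 (1.26, SE 0.33, adjusted p = 0.0758) and in PCL12 minus HG3 (1.18, SE 0.32, adjusted p = 0.181), where 0.668% did, both by edgeR with the block. With PCL12 pair 1 alone, MEC2 minus PCL12 turned to -0.47 for MIR155HG (SE 0.90) and -0.68 for MIR17HG (SE 1.32) in edgeR without the block. PCL12 minus HG3 was then 1.58 for MIR155HG (SE 0.91) and 2.42 for MIR17HG (SE 1.35) in edgeR without the block (adjusted p = 1.00 for both). With the block it was 1.57 (SE 0.49, adjusted p = 0.437) and 2.36 (SE 0.48, adjusted p = 0.00256) in edgeR. Without pair 2 of MEC2 these MEC2 differences were 0.70 for MIR155HG (adjusted p = 0.892) and 0.41 for MIR17HG (adjusted p = 1.0), and without pair 2 of HG3 they were 1.00 (adjusted p = 0.0653) and 0.77 (adjusted p = 0.914) in edgeR. limma-voom with the block gave 1.18 and 1.44 (adjusted p = 0.998 for both). The MEC2 and PCL12 comparisons share the HG3 samples.

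Unstimulated levels were then compared between the lines. MIR155HG was at 338 ± 142 CPM in HG3, 281 ± 204 in MEC2 and 258 ± 96.3 in PCL12 (SD, n = 3), and neighbours in this order did not differ beyond their spread (exact permutation p = 0.7 for MEC2 against HG3 and 0.9 for MEC2 against PCL12). In PCL12 replicate 1 alone MIR155HG was at 148 CPM, below every unstimulated HG3 library, and its edgeR difference from HG3 was -1.17 (SE 0.68, adjusted p = 0.519). MIR17HG was at 33.5 ± 11.3 CPM in MEC2, 20.04 ± 12.7 in PCL12 and 17.9 ± 10.3 in HG3, again without a call (exact permutation p = 0.3 and 0.8 between neighbours). In PCL12 replicate 1 alone MIR17HG was at 5.80 CPM, below every unstimulated HG3 library, and its edgeR difference from HG3 was -1.60 (SE 1.04, adjusted p = 0.608). MIR22HG was lowest in MEC2, at 5.57 ± 2.46 CPM, against 12.5 ± 6.59 in HG3 and 14.5 ± 3.82 in PCL12. For MIR22HG the edgeR difference of MEC2 was -1.17 from HG3 (SE 0.51, adjusted p = 0.174) and -1.38 from PCL12 (SE 0.51, adjusted p = 0.241). Its 3 MEC2 values lay below all those of HG3 and PCL12 (exact permutation p = 0.1 for each, the smallest possible), as was the case for 10.6% of tested genes against HG3 and 9.75% against PCL12. At the filter of 10 counts no member was a DEG in edgeR in these contrasts, where 10.4% of genes were between MEC2 and HG3, 10.4% between PCL12 and HG3 and 3.9% between MEC2 and PCL12, and 9.78%, 9.44% and 2.05% passed the adjusted threshold. With no filter, again without its own spread, MIR22HG was a DEG in edgeR in MEC2 against HG3 (-1.18, adjusted p = 0.0366) and against PCL12 (-1.41, adjusted p = 0.0178). Against PCL12 it also met the DEG definition with library totals (-1.42, adjusted p = 0.194), in DESeq2 (-1.38, adjusted p = 0.0890) and without PCL12 unstimulated replicate 3 (-1.59, adjusted p = 0.181).

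The rows of the single hairpins, MIR155, MIR17, MIR18A, MIR19A, MIR20A, MIR19B1, MIR92A1, MIR22 and MIR4432, had 0 counts in all 18 libraries. Of all 1868 hairpin rows 729 had at least 1 count. These libraries measured the host transcripts and gave no reading of the mature microRNAs. The labels name a kit of a family best known for 3′ tag libraries and the study's methods a stranded reverse protocol, and which applies is not settled here. In 3′ tag libraries the counts would read transcript ends, so that the isoforms of MIR17HG could not be told apart and a hairpin far from an end would hold no reads.

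Of the other 55 host transcripts of the table, 50 had counts and 40 were tested. In edgeR 1 of the 40 was a DEG in MEC2, MIR34AHG, the host of the p53-induced miR-34a, and 0 in HG3 and PCL12, beside 0.251%, 0.496% and 0.116% of all genes. An unadjusted P value under 0.05 was seen for 1 of them in HG3, 4 in MEC2 and 2 in PCL12, against 3.73%, 2.46% and 2.09% of all genes. In PCL12 pair 1 alone 38 were tested and 1, MIR4697HG, named after its values were seen, was a DEG in edgeR without the block, as 0.263% of all genes were. With the block 3 were, MIR3142HG, MIR4697HG and MIR222HG (2.03, SE 0.74, adjusted p = 0.812 in edgeR), as 0.996% of all genes were. MIR34AHG was low in MEC2, at 1.51 ± 1.60 CPM stimulated against 0.441 ± 0.420 CPM unstimulated (SD, n = 3, exact permutation p = 0.4). Its Log2FC was 1.76 (SE 0.61, adjusted p = 1.0 in edgeR), and without CpG replicate 2 it was 0.34 (SE 0.51). The median Log2FC of the tested other hosts was -0.08 in HG3, 0.0 in MEC2, 0.19 in PCL12 and 0.55 in PCL12 pair 1 alone, beside medians over all genes of 0.0, 0.0, 0.02 and 0.06 in the same fits. Some hosts passed the filter only through PCL12 CpG replicate 1, the deepest library at 67308932 counts. It held all 13 counts of MIR31HG and all 11 of MIR3976HG, which had 4.26 and 4.04 in PCL12. Nothing is therefore drawn from the PCL12 medians.

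MIR3142HG, the host of miR-146a, a microRNA that restrains NF-κB signalling by targeting IRAK1 and TRAF6, had the highest mean of these other hosts, 87.9 CPM. In MEC2 it stood at 118, 284 and 61.5 CPM with CpG and at 72.2, 58.1 and 42.4 CPM without. In PCL12 it stood at 123, 150 and 61.8 against 46.5, 111 and 46.5 CPM, and in HG3 at 64.7, 74.6 and 96.4 against 57.4, 24.7 and 89.6 CPM. It was higher after CpG in 9 of 9 pairs and MIR155HG in 6, a difference that was not tested. The share of all genes higher in 9 of 9 pairs was not computed. The groups of MIR3142HG overlapped in every line (exact permutation p = 0.4 in HG3, 0.2 in MEC2 and 0.2 in PCL12). Its Log2FC was 1.42 in MEC2 (SE 0.56, adjusted p = 1.0) and 0.87 over the 3 lines (SE 0.32, adjusted p = 1.00 in edgeR). It was 0.46 in HG3 (SE 0.55) and 0.72 in PCL12 (SE 0.55). With the edgeR block it was 1.17 in MEC2 (SE 0.21, adjusted p = 0.000103), and without pair 2 of MEC2 0.62 (adjusted p = 0.678). With the block, 3 of the 40 hosts were DEGs in MEC2, namely MIR3142HG, MIR34AHG and MIR222HG, all higher, and the first 2 named passed the adjusted threshold in edgeR, beside 0.555% and 0.333% of all genes. None of the 3 was a DEG without pair 2. In PCL12 pair 1 alone MIR3142HG had 1.40, a DEG in edgeR with the block (SE 0.39, adjusted p = 0.173) and not without it (SE 0.87, adjusted p = 1.0). The other abundant hosts, MIR600HG, MIR193BHG and MIR3681HG, had Log2FC values of 0.10, 0.47 and -0.22 in MEC2 and were not called.

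Transcription factors that control these hosts were read from 18 genes of the NF-κB, AP-1, IRF, MYC, MYB, E2F and p53 families. In MEC2, 2 of 18 rose at the DEG definition in edgeR, NFKB2, the p100 subunit of NF-κB, by 1.12 (SE 0.34), and BATF, an AP-1 partner, by 1.02 (SE 0.36), each with an adjusted p = 1.0, and 0 fell, where 0.251% of all genes were DEGs. An unadjusted P value under 0.05 was held by 3 of the 18 in MEC2, beside 2.46% of all genes. In HG3 and PCL12 0 of 18 were DEGs, with 0 and 1 at an unadjusted P value under 0.05, beside 3.73% and 2.09% of all genes. In PCL12 pair 1 alone 0 of 18 were DEGs without the block and 2 with it in edgeR, where 0.263% and 0.996% of all genes were, BATF at 1.25 (adjusted p = 0.436) and FOS at -2.39 (adjusted p = 0.573). BATF was at 182 ± 55.7 CPM in stimulated against 89.5 ± 16.7 CPM in unstimulated MEC2 (SD, n = 3, exact permutation p = 0.1, the smallest possible). Its groups did not overlap, as for 2.52% of tested genes with higher CpG values. For NFKB2 in MEC2 the exact permutation p was 0.2. Both genes were taken up here as DEGs of these same data. Without CpG replicate 2 BATF was still a DEG at 1.20 (SE 0.40), while NFKB2 was not, at 0.74 (SE 0.34). With the edgeR block, NFKB2, BATF, RELB and REL passed the adjusted threshold in MEC2 (0.00218, 0.00155, 0.0180 and 0.0112), as did 0.333% of all genes. Of the 18, 1 met the DEG definition with the block, as 0.555% of all genes did, NFKB2 (1.01), while BATF fell just short of the required fold. In edgeR with the block and without pair 2 of MEC2, BATF (adjusted p = 0.00105) and RELB (adjusted p = 0.0279) passed the adjusted threshold. NFKB2 (adjusted p = 0.140) and REL (adjusted p = 0.388) did not pass in this edgeR fit. The share of all genes that passed in it is not given here. In both block fits each gene's own spread did not enter, so no response of these factors is drawn from them. Without the block and without CpG replicate 2, RELB was at 0.81 (SE 0.48) and was not a DEG. MYC, the driver of MIR17HG, had 0.16 in MEC2 (SE 0.37, exact permutation p = 0.7). The list's median Log2FC was 0.24 in MEC2, 0.11 in PCL12 and 0.01 in HG3.

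**Figure D5:**
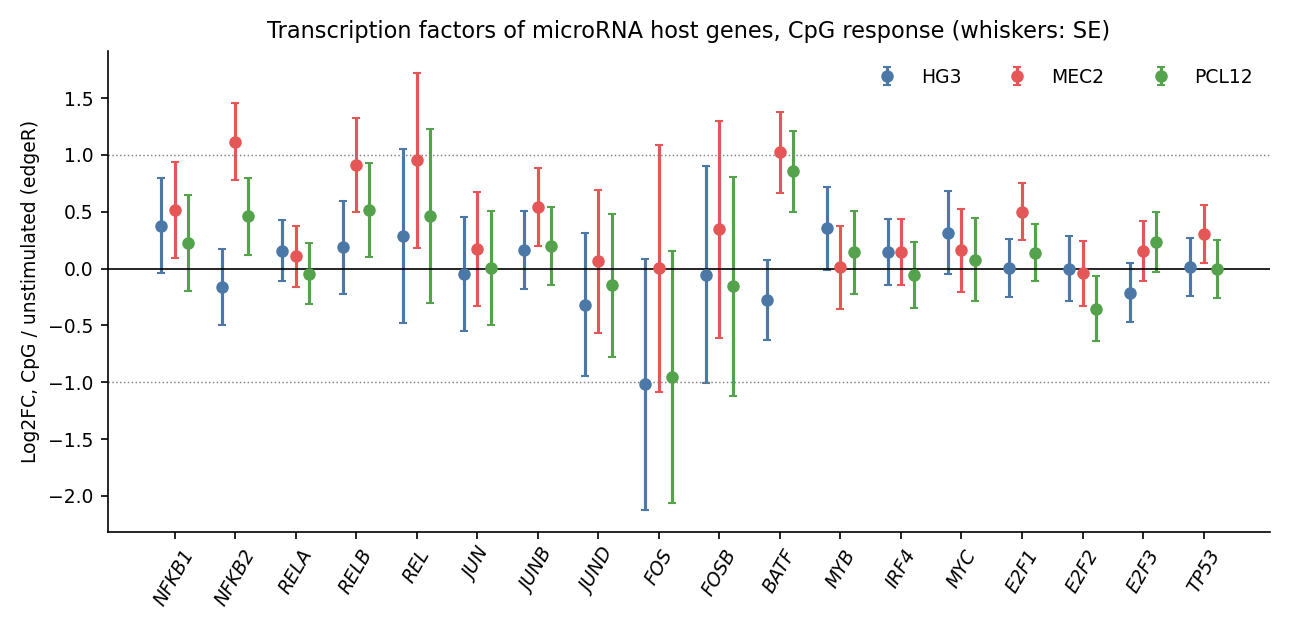
Log2FC of 18 transcription factors in CpG-stimulated against unstimulated HG3 (blue), MEC2 (red) and PCL12 (green) from edgeR without pairing, with whiskers for the standard error and dotted lines at a |Log2FC| of 1. NFKB2 and BATF stand above 1 in MEC2.

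The genes that process microRNAs and the known targets of the hosted microRNAs were not called. Of 14 processing genes, among them DROSHA, DGCR8, DICER1 and AGO2, 0 were DEGs in any line, and 0 had an unadjusted P value under 0.05 in edgeR. Of all genes, 0.496%, 0.251% and 0.116% were DEGs in HG3, MEC2 and PCL12 without the block. Such a P value was held by 3.73%, 2.46% and 2.09%. Counts of 0 in lists this short are near these shares, so nothing about the listed genes is drawn from them. The median Log2FC of this group was 0.12 in HG3, 0.03 in MEC2 and -0.02 in PCL12. Of 10 targets of miR-155, 6 of miR-17-92 and 2 of miR-22, 0 were DEGs in edgeR or limma-voom with the block, and 0 had an unadjusted P value under 0.05 in edgeR without pairing. With the edgeR block 0.731%, 0.555% and 0.242% of all genes were DEGs in HG3, MEC2 and PCL12. These counts of targets are therefore also near the share of all genes. In MEC2, INPP5D, which encodes SHIP1, had -0.17 and SOCS1 0.36, and BCL2L11, which encodes BIM, had 0.16. The medians of the target groups of miR-155, miR-17-92 and miR-22 in MEC2 were 0.03, -0.014 and -0.11. They were 0.05, 0.06 and 0.10 in HG3 and -0.08, -0.06 and -0.006 in PCL12. In PCL12 pair 1 alone they were -0.27, 0.06 and -0.002, where the median over all genes was 0.06. None of these medians was tested. Transcript levels at 4 h do not show translation, so an effect of the microRNAs on protein was not measured.

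In edgeR without pairing the 8 nearest expressed neighbours of the 4 hosts, 1 on each side, were not DEGs in any line. Of all genes, 0.496%, 0.251% and 0.116% were in HG3, MEC2 and PCL12, so nothing is drawn from this count. With the block 1 was, SP3P, named after its values were seen, a pseudogene 1984 kb before MIR17HG. It was at -4.40 in MEC2 (adjusted p = 0.217 in edgeR), where 0.555% of all genes were DEGs with the block. MRPL39, 10.5 kb after MIR155HG, had 0.04 in MEC2 and -0.12 in PCL12, and LINC00158, 130 kb before it, had 0.45 and 0.25. BCL11A, 10.7 kb after MIR4432HG, had 0.14 in MEC2 (SE 1.12, exact permutation p = 0.7).

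Among 13990 genes, those whose log2 CPM over the 18 libraries was most like MIR155HG were JPH4 (Pearson r 0.807), AC018628.1 (0.775) and ZNF75A (0.771). LINS1 (0.879), AL390719.1 (0.857) and CATSPER2 (0.847) were most like MIR17HG, and FAM83G (0.922), FAM199X (0.910) and ADM2 (0.897) most like MIR22HG. MIR155HG and MIR17HG correlated at 0.670, and at 0.630 after the group means had been removed. For MIR155HG and MIR22HG the values were -0.07 and -0.03, and for MIR17HG and MIR22HG -0.11 and 0.44. All of these values describe 18 libraries that come from 3 lines and differ in depth. They include the libraries rich in mitochondrial counts and the PCL12 libraries that hold MEC2 transcripts.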

How the data were processed

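The deposited values are raw read counts per gene symbol, 1 table of 56609 symbols by 18 libraries, without normalization. Per the submitters' processing notes the authors used FastQC, MultiQC, Trimmomatic, STAR and featureCounts with hg38, with no versions given. The methods of the study name a stranded reverse library, and the labels a Lexogen QuantSeq kit. The annotation and strand setting of the counting are not given in the sources used here. All columns were assigned by label, and 0 were left out.

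Genes with at least 10 counts over the libraries (31872) were scaled with TMM and fitted in edgeR 4.0.16 (R 4.3.3, limma 3.58.1, DESeq2 1.42.0, Python 3.11.15) with 1 mean for each of 6 groups, robust quasi-likelihood dispersion and 12 residual degrees of freedom. The DEG definition is that of the study's methods. P values were adjusted by Benjamini-Hochberg over all tested genes. CPM values used the TMM factors, and a floor is 3 counts, which covers counting error only. The methods were tested on simulated data. Each replicate series held 1 stimulated and 1 unstimulated sample according to the series description, so replicate numbers pair samples. Correlations of paired libraries after removal of group means ran from -0.0133 (MEC2 replicate 2) to 0.611. Alternatives were RLE, library totals, filterByExpr, no filter, DESeq2, limma-voom, the replicate block (6 residual degrees of freedom, with infinite prior degrees of freedom in edgeR), the line alone and left-out libraries. The block without single pairs, the values of list genes in PCL12 pair 1, the sign permutation, and the exact permutation tests on CPM of list genes and of unstimulated levels were added after seeing the data. Exact tests were two-sided. Named are the 4 members, other hosts that were DEGs or the 5 most abundant, and list genes. Members, lists and tests were chosen with earlier results of these data known. Some genes of these lists are not reported here and were left out of the list counts.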

Additional observations from a re-analysis of the deposited data

Results flagged for a closer look

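MIR155HG is listed here because a fitted difference of its CpG response between lines had an adjusted p under 0.05 in edgeR with the replicate block. In edgeR with the replicate block, the Log2FC of MIR155HG was larger in MEC2 than in HG3 by 1.28 (SE 0.30, adjusted p = 0.0221). In that fit the prior degrees of freedom were infinite for 100% of genes, so the spread of MIR155HG between its own pairs (SE 0.63 in MEC2 and 0.32 in HG3) did not enter the test, and no difference between the lines is drawn from it. The difference without the block was 1.10 (SE 0.67, adjusted p = 1.00 in edgeR), and with no filter on low counts it met the DEG definition without the block at 1.11 (SE 0.39, adjusted p = 0.692), again with infinite prior degrees of freedom. It also met that definition, though not the adjusted threshold, in edgeR without the block when MEC2 unstimulated replicate 3 was left out. The prior degrees of freedom were finite in that fit. MIR155HG was higher after CpG in 3 of 3 MEC2 pairs and 1 of 3 HG3 pairs. Without MEC2 pair 2 the block gave 0.70 (adjusted p = 0.892), and without HG3 pair 2 it gave 1.00 (adjusted p = 0.0653), so the call was lost without either pair. Each of these pairs holds a library rich in mitochondrial counts (19.7% and 20.2%), whose part was not tested. limma-voom with the block gave 1.18 (adjusted p = 0.998). With 3 libraries per group, no group was large enough to examine single libraries as outlying.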

How the results depend on the processing

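All values here are Log2FC or differences of it unless a count of DEGs is named, and the cause of each change was not tested. No member became a DEG in HG3 under any alternative. MIR155HG in HG3 (-0.13) took the opposite sign in edgeR with the replicate block without the HG3 pair 2 (0.16), and leaving out single libraries gave -0.45 to 0.26. MIR17HG in HG3 (-0.09) was 0.047 in limma-voom and 0.46 in the fit with the replicate block without that pair, and -0.65 to 0.42 with single libraries left out. MIR22HG with single libraries left out ran from -0.43 to 0.59 in HG3, -0.36 to 0.61 in MEC2, -0.31 to 0.45 in PCL12 and -0.062 to 0.33 over the lines. With the replicate block MIR22HG was -0.018 in PCL12, and without the MEC2 pair 2 it was -0.057 in MEC2 and -0.0016 over the lines.

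MIR155HG became a DEG in MEC2 with the edgeR replicate block (1.16), and with single libraries left out its value was 0.62 to 1.74, the DEG being the fit without MEC2 unstimulated replicate 3. MIR17HG became a DEG in MEC2 with no filter (1.66), with the edgeR block (1.22) and from the line alone (1.58), and in PCL12 with no filter (1.01) and the block (1.14). With the replicate block and without the PCL12 pairs 2 and 3, the PCL12 values were 1.45 for MIR155HG and 2.33 for MIR17HG, and that of MIR17HG over the lines was 1.18. MIR4432HG became a DEG in MEC2 in limma-voom without and with the block, where its fitted values of 3.04 and 3.05 depend on the offset added to 0 counts and are no fold. In edgeR the block and no filter gave infinite prior degrees of freedom, so these gained calls leave out each gene's own spread. The block changed no other call of a member in a line.

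The number of DEGs was 158 in HG3, 80 in MEC2 and 37 in PCL12. It was 365, 224 and 128 with no filter, 278, 153 and 209 in limma-voom, 262, 211 and 198 in limma-voom with the replicate block, and 3, 52 and 24 from each line alone. DESeq2 gave 251 in HG3 and 139 in MEC2, and edgeR with the replicate block 177 in MEC2 and 77 in PCL12. Without the MEC2 pair 2 the block gave 179 in MEC2. In PCL12 without replicates 2 and 3 there were 81 DEGs, and 307 with the block. With single libraries left out, the numbers were 114 to 307 in HG3, 48 to 164 in MEC2 and 19 to 67 in PCL12.

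Differences between lines changed sign where they were small. For MIR155HG, MEC2 minus PCL12 was -0.47 without the PCL12 libraries of replicates 2 and 3, -0.20 with the block without the MEC2 pair 2, -0.28 with the block without the PCL12 pairs 2 and 3, and -0.13 to 0.98 with single libraries left out. For MIR17HG these values were -0.68, -0.77, -1.09 and -0.36 to 1.19, and for MIR22HG -0.18, -0.041, -0.26 and -0.46 to 0.59. For MIR22HG, MEC2 minus HG3 was -0.13 with the block without the MEC2 pair 2 and -0.44 to 0.73 with single libraries left out. PCL12 minus HG3 for MIR22HG was -0.019 with library totals, -0.087 with the replicate block, -0.014 in limma-voom with the block, -0.17 with the block without the HG3 pair 2, and -0.49 to 0.54 with single libraries left out.

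In unstimulated cells, MIR155HG ran from -1.04 to 0.12 in MEC2 minus HG3 and from -0.64 to 0.47 in MEC2 minus PCL12 with single libraries left out, and the latter was -0.0018 in limma-voom. MIR17HG in PCL12 minus HG3 was -1.60 without the PCL12 libraries of replicates 2 and 3 and -0.26 to 0.68 with single libraries left out. MIR4432HG had no fold in HG3, where its counts were 0, and was below the threshold of filterByExpr. At 25 counts in all, depth limits every statement on it.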
